A study of Mus musculus with 4 samples.

Results

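Tricarboxylic acid cycle genes were followed through 9 members, Pdha1, Cs, Idh3a, Ogdh, Dlst, Dld, Suclg1, Fh1 and Mdh2, in hematopoietic stem cells with and without an intact Dis3 gene. They were chosen by name, with earlier results of these data known, and 9 of 9 were found among the 24411 genes of the deposited tables. The 9 members also passed the filter on low counts, which kept 12244 genes, and the lowest count of any of them in any library was 296 (Dld).

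The cycle runs in the mitochondrial matrix. Pyruvate made by glycolysis is turned into acetyl-CoA by the pyruvate dehydrogenase complex, citrate synthase joins the acetyl group to oxaloacetate, and the following steps release carbon dioxide, load the electron carriers NADH and FADH2 that feed the respiratory chain, and restore oxaloacetate. Resting hematopoietic stem cells are known for low mitochondrial respiration and a reliance on glycolysis, and their entry into division is known to go with greater use of mitochondria.

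The series holds 2 libraries of each genotype on a C57BL/6 background, each made from 100 sorted cells with RamDA-seq, which reads whole transcripts of total RNA from few cells. Wild-type donors were Dis3fl/fl and Dis3-/- donors were Dis3fl/fl;Mx-Cre, so both genotypes carried the floxed allele and the wild type carried no Cre. Lethally irradiated CD45.1 hosts received marrow of one genotype, 300 µg of pIpC (a double-stranded RNA mimic that induces interferon) was injected on days 0 and 2 starting 4 weeks later, and lineage-negative, EPCR-positive, CD150-positive, CD48-negative cells were sorted on day 4. The Mx promoter that drives Cre answers to interferon and is not restricted to stem cells. That wild-type mice also received pIpC is read from treatment text shared by both genotypes, and no age of the mice was given in the sources used here. The design text gives 2 mice per genotype; how libraries were assigned to mice is not described further, so p-values measure the spread between these libraries.

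Libraries held 6085367 to 6818535 expected counts. Dis3, a nuclease of the RNA exosome that degrades RNA from its 3' end, stood at 55.9 and 53.2 CPM (counts scaled to a common library size by TMM) in wild type versus 23.6 and 30.2 in Dis3-/- libraries, a log2 fold change of -1.02 ± 0.14 (standard error, SE; edgeR adjusted p = 2.58e-04). Of 6 stem cell marker genes Kit, Hlf and Fgd5 fell, beside 10.2% of all tested genes called lower. Procr, Slamf1 and Mecom did not pass the test, and Procr and Slamf1 encode EPCR and CD150, on which the cells were sorted. Markers of other cell types summed in the wild-type and Dis3-/- libraries to 11.1 to 15.99 and 4.07 to 4.88 CPM (5 erythroid genes), 61.8 to 79.7 and 34.9 to 66.0 CPM (5 megakaryocyte genes), 186 to 200 and 172 to 182 CPM (5 granulocyte and monocyte genes, mostly Lyz2), 60.9 to 85.1 and 65.7 to 82.3 CPM (5 lymphoid genes, mostly Nkg7) and 111 to 112 and 65.5 to 75.4 CPM (5 endothelial and stromal genes, mostly Pecam1). Hbb-bs, Cd3e and Il7r had 0 counts in every library. The 5 genes of cycling cells (Mki67, Top2a, Ccnb1, Cdk1 and Rrm2) all rose, with a sum of 658 and 746 CPM in the wild-type against 1541 and 1595 CPM in the Dis3-/- libraries. Their part in the results below, and that of the other marker lists, was not tested.

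Cycle genes were more often higher than lower in Dis3-/- stem cells, by modest amounts. Idh3a, Cs, Fh1, Mdh2, Dlst and Ogdh rose, by folds of 1.56, 1.35, 1.34, 1.31, 1.24 and 1.18 over wild type. Suclg1, Dld and Pdha1 did not pass the test, with folds of 1.14, 1.10 and 0.967. Thus 6 of 9 members were called higher by edgeR's quasi-likelihood test (Benjamini-Hochberg adjusted p under 0.05 over all 12244 genes), against 12.7% of all tested genes called higher. By the same test 0 members were called lower, against 10.2% of genes, and 0 with DESeq2, which called 5.4% of genes lower. At an unadjusted edgeR p under 0.05 also 0 were lower. That threshold was passed by 4362 of all 12244 tested genes in either direction, and their split by direction was not counted. The median log2 fold change of the members was 0.31, beside -0.0027 over all tested genes. In 7 of 9 members both Dis3-/- libraries lay above both wild-type libraries, which was so for 31.9% of all tested genes. In these bulk libraries a change in the amount of a transcript per cell cannot be told apart from a change in the mix of cells sorted.

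**Figure D1:**
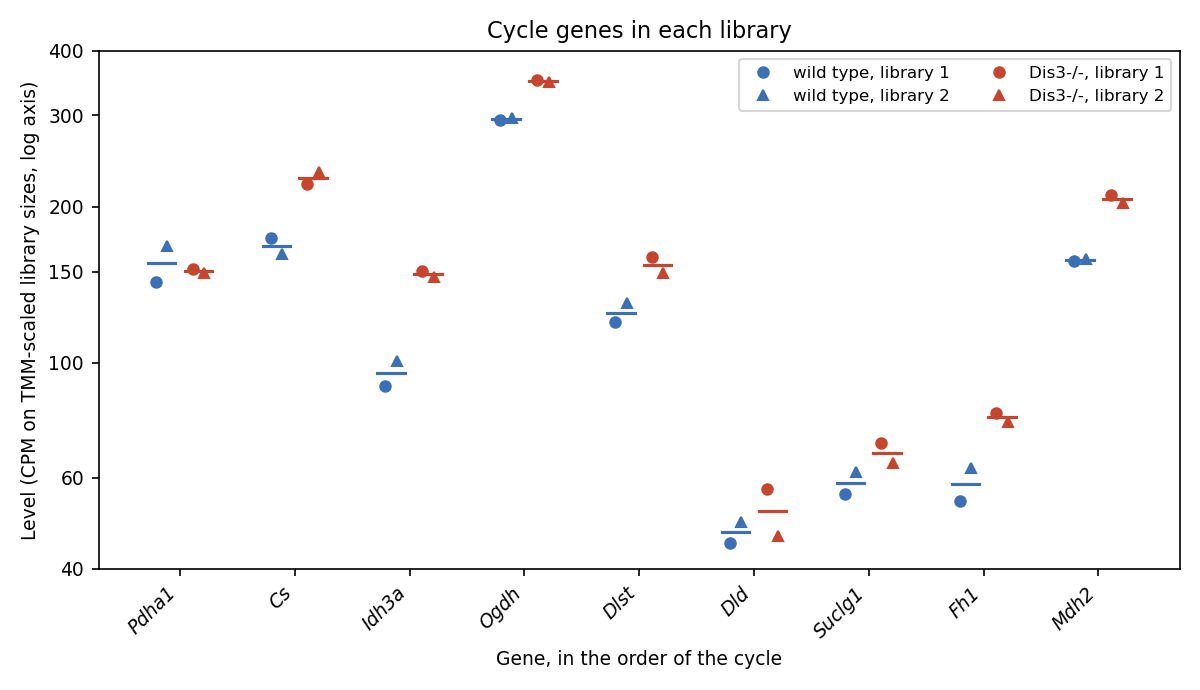
Level of each member in CPM on TMM-scaled library sizes (log axis) in the 2 wild-type (blue) and 2 Dis3-/- (red) libraries, with the group mean as a bar; circles are library 1 and triangles library 2 of a group. The red points lie above the blue ones for all members but Pdha1 and Dld, and the gap is widest for Idh3a.

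For some members the call depended on the test and unit used or on a single library. Idh3a and Mdh2 passed under all 11 alternatives tried, and Cs in all but 2, while Fh1, Dlst and Ogdh each lost their call in several. DESeq2 called 4 of the 9 members higher (Idh3a, Cs, Mdh2 and Ogdh), where it called 7.59% of genes higher. On TPM (the authors' values scaled for transcript length and depth) limma called 2 of the 9 higher, Idh3a and Mdh2, where it called 6.2% of genes higher. In the other settings members called higher numbered 3 on log2(TPM + 0.1) (6.85% of genes), 2 on unfiltered TPM (2.91%), 6 with RLE scaling (12.4%) and 6 with no filter on low counts (10.7%). Leaving out a library gave 3 and 5 members without wild-type replicates 1 and 2 (9.79% and 9.85% of genes) and 4 and 6 without Dis3-/- replicates 1 and 2 (10.2% and 10.5%). On TPM the median log2 fold change was -0.11 over the 12099 genes tested by both limma and edgeR. Of the genes it tested, limma called 805 higher and 973 lower, where edgeR called 1561 and 1250. These settings differ in unit, test and filter at once, and RLE scaling alone kept 6 members called. Relative to that median the members' TPM values ran from -0.05 (Pdha1) to 0.63 (Idh3a), beside -0.05 and 0.64 by edgeR.

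**Figure D2:**
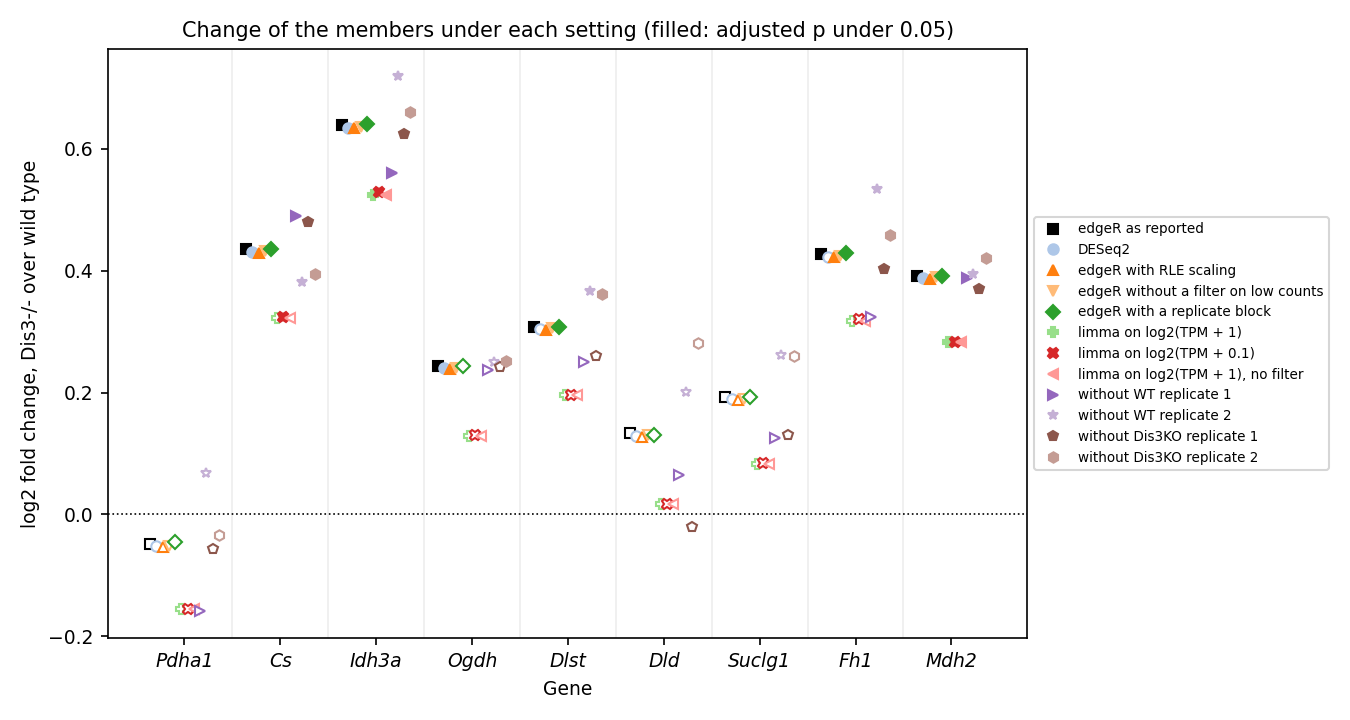
log2 fold change of each member, Dis3-/- over wild type, as reported (black squares) and under 11 alternatives of test, scaling, filter, unit, replicate block and left-out library; filled symbols have an adjusted p under 0.05. The values of Idh3a stay between 0.53 and 0.72 and are filled throughout, whereas those of Pdha1 lie on both sides of 0 and are open throughout.

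Promoter sequences of members that rose are shown because these genes moved in the same direction, together with that of Pdha1, which did not pass the test. RefSeq transcript starts on GRCm38.p6 (the assembly of mm10) were matched for 8 of 9 members, all but Idh3a. The members called higher with a single start were taken, which leaves out Ogdh. The RefSeq transcript start of Dlst lies just inside the gene's annotated start at 85110822, so the last bases of its window are within the gene. Each line gives the bases before the transcript start, 5' to 3' on the gene's strand, and capitals mark matches on either strand to 7 searched motifs. These were CCAAT (known to be bound by NF-Y) and GGGCGG (known to be bound by Sp1 and its relatives). The E-box CACGTG, the cyclic AMP response element core TGACGT and the nuclear receptor motif AAGGTCA were searched as well. The remaining motifs were the palindrome made of TCTCG and its reverse complement, and the NRF1 core, which starts with GCGCA and ends with GCGC around any single base. The windows are chr10:128337477-128337726 (plus strand, Cs), chr1:175625636-175625885 (minus strand, Fh1), chr12:85110583-85110832 (plus strand, Dlst), chr5:135778399-135778479 (plus strand, Mdh2, ending where GENCODE M21 annotates a 5' UTR) and chrX:160138431-160138680 (minus strand, Pdha1).
Cs: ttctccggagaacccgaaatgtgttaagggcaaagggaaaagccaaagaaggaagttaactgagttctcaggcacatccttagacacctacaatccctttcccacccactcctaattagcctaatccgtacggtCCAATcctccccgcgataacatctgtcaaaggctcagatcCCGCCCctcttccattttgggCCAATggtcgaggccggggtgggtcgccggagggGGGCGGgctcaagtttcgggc
Fh1: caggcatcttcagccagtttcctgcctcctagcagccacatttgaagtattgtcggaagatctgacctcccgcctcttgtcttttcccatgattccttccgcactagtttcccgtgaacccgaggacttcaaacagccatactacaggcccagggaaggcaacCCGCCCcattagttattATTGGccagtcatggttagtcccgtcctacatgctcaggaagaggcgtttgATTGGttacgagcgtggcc
Dlst: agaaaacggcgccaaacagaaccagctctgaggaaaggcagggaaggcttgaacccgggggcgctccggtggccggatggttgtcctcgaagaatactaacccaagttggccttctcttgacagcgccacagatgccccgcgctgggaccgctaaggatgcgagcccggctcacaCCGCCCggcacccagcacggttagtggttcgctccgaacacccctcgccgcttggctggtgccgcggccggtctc
Mdh2: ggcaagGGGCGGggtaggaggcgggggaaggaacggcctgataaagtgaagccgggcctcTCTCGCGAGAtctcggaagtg
Pdha1: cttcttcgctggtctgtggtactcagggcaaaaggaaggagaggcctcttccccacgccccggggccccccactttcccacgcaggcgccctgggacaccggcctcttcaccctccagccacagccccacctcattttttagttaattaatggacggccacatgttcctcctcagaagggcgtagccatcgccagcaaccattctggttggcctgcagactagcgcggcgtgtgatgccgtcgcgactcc

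The palindrome occurred 3 times in the 250 bases before the Mdh2 start, with first bases at -190, -63 and -29 from it, of which only the first lies in the printed stretch. It was found in 0.390% of 32851 promoter windows of that length, which belong to 27025 genes. Each share given here counts windows with at least 1 match, and windows with more copies were not counted apart. The same 250 bases held TGACGT once on each strand in overlap, downstream of the printed stretch, a motif present in 6.47% of windows. The Cs and Fh1 windows held CCAAT 2 times each, a motif found at least 1 time in 33.8% of windows. Cs, Fh1, Dlst and Mdh2 held GGGCGG, found in 32.7%. None of the 7 motifs was found in the Pdha1 window or in that of Suclg1, and Dld held CCAAT 1 time, so members that did not pass the test include windows with and without a match. CACGTG (6.02% of windows), the NRF1 core (3.74%) and AAGGTCA (4.08%) were found in none of the 5 windows listed, while CACGTG and TGACGT each occurred before some of the starts of Ogdh. A match is a run of letters and was not tested for binding.

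Entry of pyruvate was read through Pdha1 and Dld. Pdha1 (X: 160122219 to 160138430, minus strand) encodes the catalytic alpha subunit of the pyruvate dehydrogenase complex, the subunit switched off by phosphorylation. It stood at 143 and 168 CPM in wild type versus 151 and 149 CPM in Dis3-/- libraries. Both Dis3-/- values lay between the wild-type ones. Its log2 fold change of -0.05 ± 0.09 (SE, edgeR adjusted p = 0.753) had a 95% interval of -0.25 to 0.15, and turned in sign without wild-type replicate 2 (0.07, edgeR adjusted p = 0.731). The expected counts of Pdha1 were not whole in 4 of 4 libraries, a mark of reads shared with other genes by estimate. In GENCODE M21 it overlaps Map3k15 on the other strand by 1143 bases, and Map3k15 held 1.07, 7.38, 12.5 and 28.5 counts in wild-type libraries 1 and 2 and Dis3-/- libraries 1 and 2. In each library the expected counts of Pdha1 and Map3k15 added up to a whole number, within rounding. The effect of this split of reads on the change of Pdha1 was not tested. Its intronless testis paralog Pdha2 had 0 counts in every library.

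Dld (12: 31331562 to 31351471, minus strand) encodes dihydrolipoamide dehydrogenase, the flavoprotein shared by the pyruvate, oxoglutarate and branched-chain keto acid dehydrogenases and the glycine cleavage system. It was the least abundant member, at 44.8 and 49.4 CPM in wild type versus 57.1 and 46.3 CPM in Dis3-/- libraries. The groups overlapped, since Dis3-/- library 2 lay between the wild-type libraries. Its log2 fold change of 0.13 ± 0.13 (SE, edgeR adjusted p = 0.512; 95% interval -0.15 to 0.42) became -0.02 when Dis3-/- replicate 1 was left out (edgeR adjusted p = 0.957).

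Among the partners of these subunits, Dlat, the acetyltransferase core of the pyruvate dehydrogenase complex, rose. It stood at 31.1 and 34.5 CPM against 47.5 and 44.4 CPM (log2 fold change 0.49 ± 0.13, edgeR adjusted p = 0.0173). Its call ended with DESeq2, on TPM values, and when either wild-type replicate 1 or Dis3-/- replicate 1 was left out (adjusted p up to 0.154). Pdhb, the beta subunit (0.24 ± 0.11, edgeR adjusted p = 0.120), and Pdhx, which anchors Dld to the core (0.52 ± 0.19, edgeR adjusted p = 0.0630), did not pass. The ratio of Pdha1 to Dlat in TPM was 6.83 and 7.23 in wild type versus 4.74 and 4.99 in Dis3-/- libraries. A ratio taken within a library does not depend on scaling between libraries. The groups did not overlap, but the exact 2-sided permutation p of a ratio cannot go below 0.333 with 2 libraries against 2.

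The cycle opens with the making of citrate. Cs (10: 128337727 to 128362482, plus strand) encodes citrate synthase, often used as a measure of mitochondrial content. Its level was 174 and 162 CPM in wild type versus 221 and 234 CPM in Dis3-/- libraries, with no overlap. It rose by 0.44 ± 0.08 on the log2 scale (SE, edgeR adjusted p = 1.88e-03; 95% interval 0.26 to 0.61). The call ended on log2(TPM + 1) values, filtered or not (limma adjusted p = 0.0528 and 0.0775). Its retrogene paralog Csl had 2.04 and 0 counts in wild type versus 1.01 and 0 in Dis3-/- libraries, and the counts of Cs were not whole in 2 of 4 libraries.

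Idh3a (9: 54586511 to 54604662, plus strand) encodes the catalytic alpha subunit of the NAD-dependent isocitrate dehydrogenase, which turns isocitrate into oxoglutarate. Its counts were 625 and 635 in wild type versus 894 and 938 in Dis3-/- libraries, all whole numbers. In CPM these were 90.0 and 100.8 against 150.5 and 146.7, so that the lower Dis3-/- library stood well above the higher wild-type one. The log2 fold change of 0.64 ± 0.09 (SE, edgeR adjusted p = 2.39e-04; 95% interval 0.45 to 0.83) was the largest of the 9 members. It ranged from 0.53 (TPM) to 0.72 (without wild-type replicate 2) over the alternatives, with adjusted p-values of at most 0.0325.

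The other subunits of the same enzyme did not pass the test. Idh3b, a regulatory beta subunit, stood at 125 and 128 against 131 and 131 CPM (0.05 ± 0.08, edgeR adjusted p = 0.710; 95% interval -0.13 to 0.23). Idh3g, the gamma subunit, stood at 116 and 123 against 136 and 137 CPM (0.20 ± 0.08, edgeR adjusted p = 0.105). The 95% interval of Idh3a did not reach those of Idh3b and Idh3g (upper bounds 0.23 and 0.38), and the difference itself was tested only as a ratio. Within libraries the TPM ratio of Idh3a to Idh3b was 0.438 and 0.481 in wild type versus 0.702 and 0.679 in Dis3-/- cells, and that of Idh3a to Idh3g was 0.410 and 0.433 against 0.582 and 0.560. Both ratios were higher in each Dis3-/- library than in either wild-type library (exact 2-sided permutation p = 0.333, the smallest possible). Idh3a was thus the least abundant subunit transcript per length in every library, and the gap to the others was narrower in the Dis3-/- libraries.

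**Figure D3:**
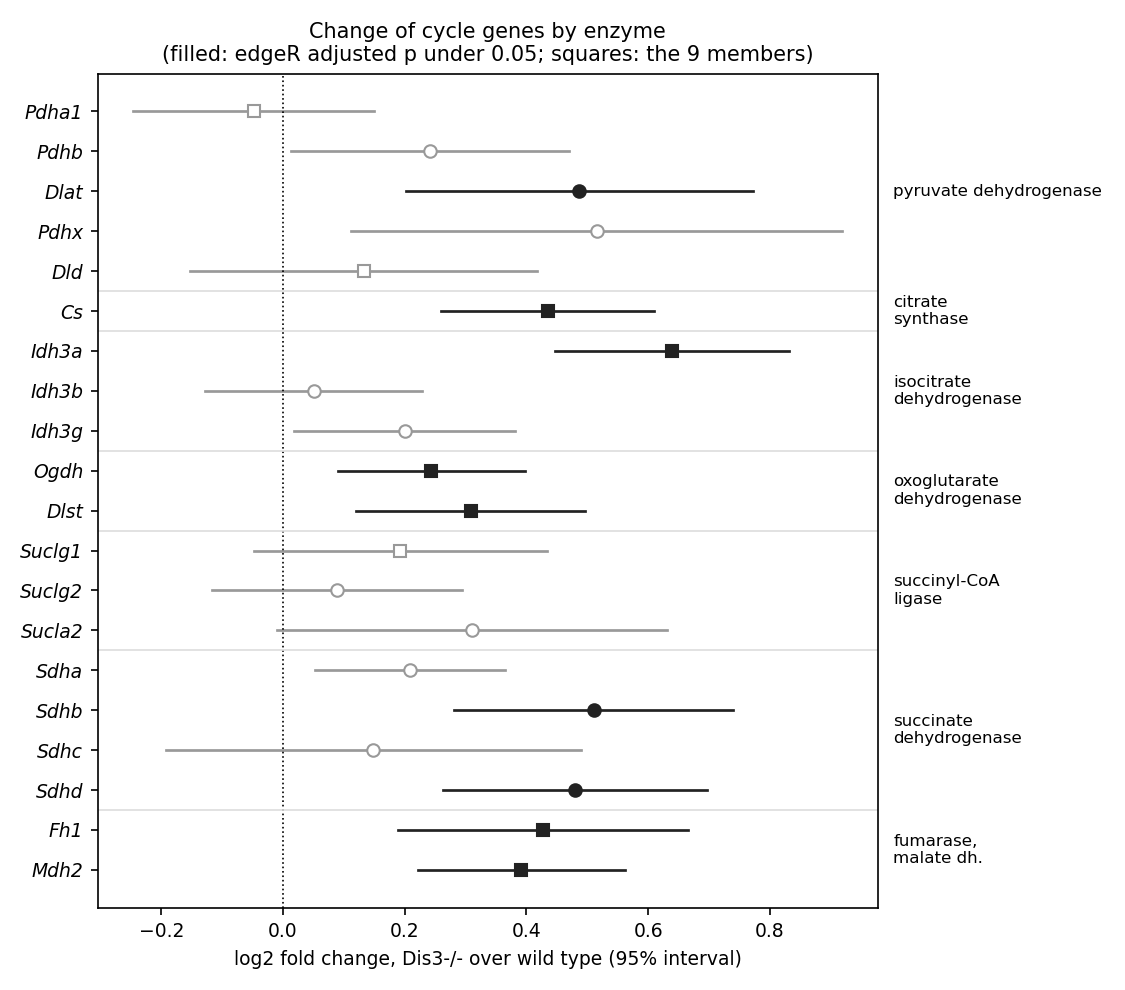
log2 fold change, Dis3-/- over wild type, with its 95% interval from edgeR for 20 genes of pyruvate dehydrogenase and the cycle, grouped by enzyme (squares, the 9 members; circles, their partners; filled, adjusted p under 0.05). Idh3a lies at 0.64, apart from Idh3b and Idh3g, and Pdha1 is the only gene of the 20 with a value below 0.

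The oxoglutarate dehydrogenase complex turns oxoglutarate into succinyl-CoA. Transcripts of its subunits Ogdh and Dlst rose by edgeR, but were called in only 4 (Ogdh) and 5 (Dlst) of 11 alternatives. Ogdh (11: 6291597 to 6359094, plus strand), the decarboxylase, had the most reads of the members, with 294 and 297 CPM in wild type versus 351 and 349 CPM in Dis3-/- libraries. Libraries of a genotype lay close together and the genotypes apart. It rose by 0.24 ± 0.07 (SE, log2 scale; edgeR adjusted p = 0.0244), the smallest change among the called members. The call ended on TPM values (limma adjusted p up to 0.261) and on leaving out wild-type replicate 1, wild-type replicate 2 and Dis3-/- replicate 1 in turn (edgeR adjusted p = 0.119, 0.0802 and 0.0520).

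Dlst (12: 85110822 to 85134091, plus strand), the succinyltransferase that forms the core of the complex, stood at 120 and 130 CPM against 160 and 149 CPM. The genotypes did not overlap. Dlst rose by 0.31 ± 0.09 on the log2 scale (SE, edgeR adjusted p = 0.0207; 95% interval 0.12 to 0.50). The call ended with DESeq2 (adjusted p = 0.0742), on TPM values (limma adjusted p up to 0.143) and on leaving out library 1 of either genotype (edgeR adjusted p = 0.155 for wild type, 0.0810 for Dis3-/-). The TPM ratio of Ogdh to Dlst was 0.996 and 0.925 in wild type versus 0.888 and 0.946 in Dis3-/- libraries, with overlap. The ratio of Dlst to Dld was 2.17 and 2.14 against 2.28 and 2.62, with no overlap.

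Suclg1 (6: 73248505 to 73276907, plus strand) encodes the alpha subunit of succinyl-CoA ligase, which makes GTP or ATP depending on its beta subunit. Its level of 55.8 and 61.5 CPM in wild type versus 70.0 and 64.0 CPM in Dis3-/- libraries did not overlap between genotypes, yet the difference did not pass the test (0.19 ± 0.11, edgeR adjusted p = 0.239). The 95% interval, -0.05 to 0.43, includes changes as large as those of Dlst and Ogdh. The beta subunits Suclg2 (GTP-forming; 0.09 ± 0.10, edgeR adjusted p = 0.545) and Sucla2 (ATP-forming; 0.31 ± 0.15, edgeR adjusted p = 0.152) did not pass either.

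The oxidation of succinate is carried out by succinate dehydrogenase, complex II of the respiratory chain. Of its 4 subunit genes Sdhb, the iron-sulfur subunit (0.51 ± 0.11, edgeR adjusted p = 3.77e-03), and Sdhd, a membrane anchor (0.48 ± 0.10, edgeR adjusted p = 3.82e-03), rose. Sdhb missed the threshold on unfiltered TPM values (limma adjusted p = 0.0517). The flavoprotein gene Sdha stood at 304 and 320 against 355 and 366 CPM (0.21 ± 0.07, edgeR adjusted p = 0.0524), and passed with no filter on low counts. The anchor gene Sdhc had a log2 fold change of 0.15 ± 0.16 (edgeR adjusted p = 0.542).

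Fh1 (1: 175601378 to 175625635, minus strand) encodes fumarase, which hydrates fumarate to malate. It was measured at 54.0 and 62.7 CPM in wild type versus 79.9 and 76.9 CPM in Dis3-/- libraries, with no overlap. It rose by 0.43 ± 0.11 on the log2 scale (SE, edgeR adjusted p = 0.0133; 95% interval 0.19 to 0.67). The call ended with DESeq2 (adjusted p = 0.0704), on TPM values (limma adjusted p up to 0.0926) and on leaving out wild-type replicate 1, where the value was 0.32 (edgeR adjusted p = 0.112). Its annotation overlaps that of Kmo on the other strand by 5255 bases, and Kmo had 3 counts in wild-type library 2 and 0 elsewhere.

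Mdh2 (5: 135778649 to 135790386, plus strand) encodes mitochondrial malate dehydrogenase, which closes the cycle and takes part in the malate-aspartate shuttle. It rose from 157 and 158 CPM to 211 and 203 CPM. The wild-type libraries differed by less than the Dis3-/- ones, and the genotypes were well apart. Its log2 fold change of 0.39 ± 0.08 (SE, edgeR adjusted p = 2.95e-03; 95% interval 0.22 to 0.56) passed under every alternative tried, with adjusted p-values of at most 0.0436. Less the median of tested genes of like length, which gives no p-value, the log2 fold change of Mdh2 was 0.23.

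Levels of different genes can be compared per length, in TPM. Mdh2 was the most abundant member in every library, at 324 ± 2.09 TPM (SD, n = 2) in wild-type and 394 ± 2.02 TPM in Dis3-/- cells. Cs came next (147 ± 9.40 and 184 ± 11.02 TPM), and Dld was lowest (51.6 ± 2.93 and 52.4 ± 6.71 TPM). Idh3a took the 7th place of 9 in the wild-type (98.8 ± 6.70 TPM) and the 3rd in the Dis3-/- libraries (142 ± 0.198 TPM). Pdha1 stood 3rd in the wild-type (139 ± 13.9 TPM) and 5th in the Dis3-/- libraries (124 ± 1.06 TPM). The TPM ratio of Idh3a to Pdha1 was 0.729 and 0.696 in wild type versus 1.15 and 1.14 in Dis3-/- libraries. Several neighbours in the order were not apart: in the wild type the ranges of Cs and Pdha1 overlapped, as did those of Dlst with Suclg1, Suclg1 with Ogdh, and Idh3a with Fh1. In Dis3-/- libraries those of Dlst and Pdha1, Ogdh and Suclg1, and Suclg1 and Fh1 overlapped. The 9 members together took 0.116% and 0.120% of all TPM in wild type versus 0.138% and 0.137% in Dis3-/- libraries.

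**Figure D4:**
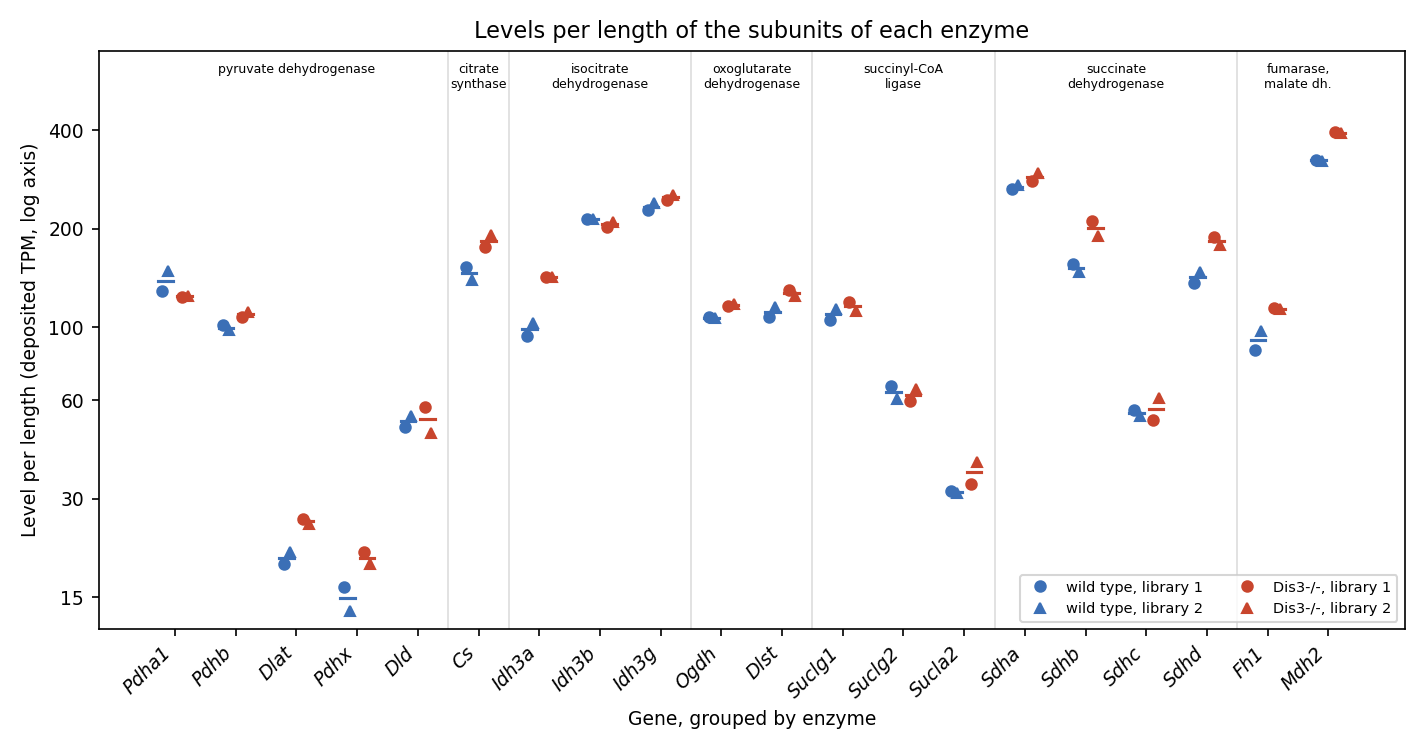
Level per length in deposited TPM (log axis) of 20 genes of pyruvate dehydrogenase and the cycle in 2 wild-type (blue) and 2 Dis3-/- (red) libraries, grouped by enzyme, with the group mean as a bar. Mdh2 is the highest gene in each library, Dlat and Pdhx lie lowest, and the red points of Idh3a (142 and 143 TPM) stand nearer to those of Idh3b and Idh3g than the blue ones do.

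Over 11 partner subunits of the members' complexes and of succinate dehydrogenase, 3 of 11 rose (Dlat, Sdhb and Sdhd), beside 12.7% of all tested genes. By the same test 0 fell, beside 10.2% of all tested genes, and the median log2 fold change was 0.24. With DESeq2 0 were lower, beside 5.4% of genes called lower. At an unadjusted edgeR p under 0.05 also 0 were lower, beside 4362 of all 12244 tested genes in either direction. With the 9 members the partners made 9 of 20 genes called higher, beside the same 12.7%.

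Regulation of pyruvate entry was represented by 10 genes, of which 1 rose and 1 fell (median 0.17), near the shares of all tested genes called higher (12.7%) and lower (10.2%). Pdk2, a kinase that switches Pdha1 off by phosphorylation, fell from 22.2 and 24.3 CPM to 8.75 and 10.5 CPM (-1.27 ± 0.20, edgeR adjusted p = 6.22e-04) and passed under every alternative tried. Its relatives Pdk1 (0.01 ± 0.09, edgeR adjusted p = 0.933) and Pdk3 (0.18 ± 0.10, edgeR adjusted p = 0.191), both more abundant in TPM, did not pass. Mpc2, a subunit of the mitochondrial pyruvate carrier, rose from 15.7 and 12.7 CPM to 22.2 and 21.4 CPM (0.62 ± 0.19, edgeR adjusted p = 0.0325). That call ended with DESeq2, on log2(TPM + 1) values, and without wild-type replicate 2, Dis3-/- replicate 1 or Dis3-/- replicate 2 (adjusted p up to 0.199). Its partner Mpc1 had a log2 fold change of 0.45 ± 0.17 (edgeR adjusted p = 0.0695).

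Dlst, Dlat and the other acyltransferases carry lipoic acid. Of 5 tested genes of its synthesis and attachment (of 6 listed) edgeR called 0 (median -0.07), beside 12.7% of all tested genes called higher and 10.2% lower. At an unadjusted edgeR p under 0.05 there were 0, beside 4362 of all 12244 tested genes, and 0 with DESeq2 or limma. Beside 12.7% of all tested genes called higher, 1 of 6 tested genes of the other complexes that use Dld rose (median -0.29). This was Gcsh, the lipoyl carrier of the glycine cleavage system (23.6 and 30.3 against 48.1 and 39.6 CPM, 0.70 ± 0.16, edgeR adjusted p = 6.39e-03), which was not called on log2(TPM + 1) values (limma adjusted p up to 0.0868). The branched-chain subunits Bckdha (-0.34 ± 0.17, edgeR adjusted p = 0.169), Bckdhb (-0.25 ± 0.17, edgeR adjusted p = 0.320) and Dbt (-0.38 ± 0.21, edgeR adjusted p = 0.212) did not pass. Dhtkd1 had the largest change of this list at low levels, 3.75 and 5.72 against 1.68 and 2.35 CPM. It did not pass either (-1.21 ± 0.47, edgeR adjusted p = 0.0772), nor did Amt (0.13 ± 0.52, edgeR adjusted p = 0.883).

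Isozymes of cycle enzymes (Aco1, Idh1, Idh2 and Mdh1) were listed with other enzymes that use cycle intermediates (Acly, Me1, Me2, Got1 and Got2). Of these 9 tested genes 3 rose and 1 fell (median 0.29), beside 12.7% and 10.2% of all tested genes. The NADP-dependent isocitrate dehydrogenases went in opposite directions. Idh2, the mitochondrial form, rose from 144 and 135 CPM to 182 and 176 CPM (0.36 ± 0.08, edgeR adjusted p = 6.68e-03). Idh1, the cytosolic form, fell from 34.7 and 33.2 CPM to 13.8 and 20.8 CPM (-0.97 ± 0.19, edgeR adjusted p = 2.42e-03), and by 0.70 on the log2 scale without Dis3-/- replicate 1. The TPM ratio of Idh2 to Idh1 was 5.62 and 5.55 in wild type versus 17.97 and 11.5 in Dis3-/- libraries. Idh2 missed the threshold on TPM values (limma adjusted p up to 0.0775) and Idh1 on unfiltered TPM values (0.0625).

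Of the malate-aspartate shuttle, Got2, the mitochondrial aspartate aminotransferase, rose from 137 and 137 CPM to 185 and 181 CPM (0.41 ± 0.08, edgeR adjusted p = 2.40e-03), under every alternative tried. Mdh1, the cytosolic counterpart of Mdh2, rose from 184 and 190 CPM to 226 and 224 CPM (0.27 ± 0.08, edgeR adjusted p = 0.0224). The call of Mdh1 ended with DESeq2, on TPM values, and when either wild-type library was left out (adjusted p up to 0.129). The other shuttle genes did not pass: the cytosolic aminotransferase gene Got1 (0.33 ± 0.19, edgeR adjusted p = 0.228) and the carrier genes Slc25a11 (0.13 ± 0.10, edgeR adjusted p = 0.363), Slc25a12 (0.03 ± 0.10, edgeR adjusted p = 0.866) and Slc25a13 (0.11 ± 0.15, edgeR adjusted p = 0.647). Mdh2 exceeded Mdh1 per length in each library, with TPM ratios of 1.36 and 1.33 in wild type versus 1.48 and 1.45 in Dis3-/- cells. Of 10 carriers of intermediates and refilling enzymes 1 had an unadjusted edgeR p under 0.05 (median 0.06), beside 4362 of all 12244 tested genes. DESeq2 and limma called 0 of them. By edgeR 0 were called, beside 12.7% of all tested genes called higher and 10.2% lower. Without Dis3-/- replicate 1 the count was 1, the dicarboxylate carrier gene Slc25a10.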

How the data were processed

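Gene expression was measured by RNA-seq in 4 libraries, 2 per genotype, grouped by the labels. The submitters' processing notes name RSEM 1.3.3, STAR 2.7.8a, Trim Galore 0.6.6 and the build mm10. Their roles, the annotation and strandedness were not given in the sources used here. The authors deposited expected counts, which are unscaled estimates for each gene, and a table of TPM. Expected counts were rounded and tested on the whole table with edgeR 4.0.16 in R 4.3.3: filterByExpr (minimum count 10, minimum total 15), TMM, glmQLFit and 2-sided glmQLFTest, Benjamini-Hochberg adjustment, threshold 0.05. SEs were derived from each log2 fold change and its F statistic, and 95% intervals from the fit's degrees of freedom. The 11 alternatives were DESeq2 1.42.0, RLE scaling, no filter, a replicate block, limma 3.58.1 on log2(TPM + 1) or log2(TPM + 0.1) for genes with a mean TPM of at least 1 or unfiltered, and each library left out. Removal of the median of tested genes of like length (20 bins of the ratio of expected count to TPM) gives no p-value and is not among them. The code was tested on simulated data. Coordinates are from RefSeq GRCm38.p6, strands and overlaps from GENCODE M21. Text names all members, Dis3, every called gene of the other lists, and the paralogs Csl and Pdha2; marker genes come from written lists, and other uncalled genes were named after their values were seen. One further gene first set in the partner list is not reported here, and counts over partners leave it out. Members and lists were chosen with earlier results of these data known. Counting error of reads without molecular identifiers is a lower limit to the true error.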

Additional observations from a re-analysis of the deposited data

How the results depend on the processing

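Directions of the 6 members that rose held in every setting. Called genes numbered 2811 (1561 higher, 1250 lower) by edgeR, 1571 (918, 653) with DESeq2, 1778 (805 higher) on log2(TPM + 1), 890 higher on log2(TPM + 0.1), and 950 (479, 471) on log2(TPM + 1) unfiltered. Members called higher were 6 by edgeR, 2, 3 and 2 in those TPM settings, and 3 to 6 with a library left out (3 without wild-type replicate 1). Partner subunits called were 3, then 2 with DESeq2 and 4 with no filter on low counts. On TPM they were 2 in each filtered setting and 1 on log2(TPM + 1) unfiltered. Genes of pyruvate entry were 2, then 1 with DESeq2, 1 on log2(TPM + 1) filtered or not, and 3 with no filter on low counts. Of complexes using Dld 1 was called and 0 on log2(TPM + 1), filtered or not. Isozymes and the enzymes listed with them were 4, then 3 with DESeq2, and 2, 2 and 1 on TPM. Carriers and refilling enzymes were 0 in every setting that kept all 4 libraries. With a library left out all calls ranged from 2112 to 2352, higher from 1226 to 1319 and lower from 886 to 1060. The lone library of a genotype is then assumed to vary like the others. With a library left out Pdha1 ranged from -0.16 to 0.068 (turned without wild-type replicate 2) and Dld from -0.020 (turned without Dis3-/- replicate 1) to 0.28; the causes were not tested. Taking off the length-matched gene median left -0.05 (Pdha1) to 0.64 (Idh3a), with Ogdh at 0.35 and Mdh2 at 0.23. Of the 9 members, 3 held their place by mean TPM in wild-type library 2, 4 in Dis3-/- library 2 and 6 in the other libraries.

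The labels do not say what libraries with the same replicate number share; deviations of same-numbered libraries correlated at -0.03. With a replicate block 2614 genes and 5 members were called, Ogdh missing the threshold (edgeR adjusted p = 0.0506).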
